A study of Sus scrofa with 23 samples.

Results

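Midkine (MDK) and pleiotrophin (PTN) were followed across 4 developmental stages of the pig. The rule took every probe set whose only gene symbol in the array annotation was MDK or PTN, which gave 4 of 24123 probe sets, 2 for each of the 2 genes (gene identifiers 100359358 and 397609). The genes were chosen because earlier work on these files had shown their course over the stages, so their values are given as a description and carry no test.

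In vertebrates, midkine and pleiotrophin make up a small family of secreted, heparin-binding growth factors. Both are rich in basic residues and in cysteines, are abundant in embryonic tissues, and bind sulphated glycosaminoglycan chains on cell-surface and matrix proteoglycans. The phosphatase PTPRZ1, the kinase ALK, syndecans, LRP1, nucleolin and integrins have been described as receptors or binding partners. Midkine was found as a gene induced by retinoic acid, and pleiotrophin as a factor that promotes the outgrowth of neurites.

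Expression was measured on a porcine Affymetrix array in 23 samples from offspring of German Landrace gilts. All of the dams had received a low-protein diet in gestation, so no sample stands for another diet. The stages were 94 days post conception (94 dpc, before birth, 5 samples) and 1, 28 and 188 days after birth (dpn, 6 samples each). The step from 94 dpc to 1 dpn is called over birth here. It includes the rest of gestation after 94 dpc, so its changes cannot be placed at birth itself. Each stage drew on the offspring of 3 gilts, and since no label ties a sample to its dam, littermates may be among the replicates and p-values over samples may be too small.

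Every sample was labelled liver, whereas the title of the series names muscle. Of 10 skeletal muscle markers 8 were measured, and their median rank on the array was at percentile 99.8 to 99.9 in each stage. The 10 hepatocyte markers had a median rank between percentiles 41.5 and 75.2. No tissue is therefore assigned, and the samples are called the samples labelled liver. In bulk RNA, fewer cells of a type and less RNA per cell cannot be told apart.

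Signals are linear intensities in arbitrary units, and the trimmed mean was 500.1 to 500.2 on every array. Control probe sets for the 5' and 3' ends of the GAPDH transcript gave a ratio of 1.09 to 1.29 in 20 samples. In the other 3, which were replicates 2, 4 and 5 of 1 dpn, the ratio was 0.0868, 0.148 and 0.138. The same ratio for actin did not set them apart, at 1.01, 0.817 and 0.985 beside 0.82 to 1.61 in the other samples. The 3 samples hold little signal from the 5' end of GAPDH, and the main results that involve 1 dpn are also given without them.

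The course of MDK was high before birth, low on the day after birth, partly restored at 28 dpn and low again at 188 dpn. Its probe set Ssc.20489.1.S1_s_at, called the _s_at probe set here, gave signals of 3783, 2703, 3074, 3194 and 3900 at 94 dpc. At 1 dpn the 6 signals were 238, 10, 118, 15.5, 8.92 and 56.6. All samples at 1 dpn were far below every sample at 94 dpc, and the 3 lowest were those with a low GAPDH ratio.

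At 28 dpn the _s_at probe set of MDK ranged from 465 to 1376, with a median of 910. At 188 dpn it ranged from 39.3 to 345, with a median of 143. The samples at 28 dpn lay above all those at 1 and 188 dpn and below all those at 94 dpc. The ranges of 1 and 188 dpn overlapped, and the later stage held the higher signal in 29 of the 36 possible pairs of samples.

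In means, the _s_at probe set of MDK went from 3331 ± 502 (SD, n = 5) to 74.5 ± 90.4 (n = 6) over birth, then to 936 ± 322 (n = 6) and 174 ± 110 (n = 6). The spread relative to the mean was smallest before birth, with a coefficient of variation of 15.1%, and reached 121.3% over the 6 samples at 1 dpn. Within that stage it was 67.0% in the 3 samples of normal GAPDH ratio and 30.7% in the 3 of low ratio, beside 63.1% at 188 dpn. Among all probe sets of an array, the median rank of this probe set was at percentile 95.6 at 94 dpc and then at 23.2, 85.3 and 53.2. Its rank was highest in the fetal samples. At 1 dpn the median percentile was 49.6 in the samples of normal GAPDH ratio, which reached 63.1, and 10.4 in those of low ratio.

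The other MDK probe set, Ssc.20489.1.S1_at (the _at probe set), followed the same order from 94 dpc to 28 dpn. Its 5 signals at 94 dpc were 3080, 2444, 2131, 2849 and 2469. At 1 dpn they were 232, 108, 137, 9.39, 44.2 and 244. The samples with a low GAPDH ratio were again the 3 lowest of their stage.

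At 28 dpn the _at probe set ranged from 461 to 823 around a median of 524, and at 188 dpn from 71.1 to 275 around a median of 121. It too had no overlap between 28 dpn and any other stage. At 1 and 188 dpn its signals overlapped, with the later stage higher in 20 of 36 pairs, so the order of these neighbours was not settled. Both probe sets were designed from the same expressed sequence, and their agreement is no independent measurement.

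The mean of PTN was lower at every later stage, with no return at 28 dpn. Its bright probe set, Ssc.12975.1.S1_at, gave 839, 793, 1313, 1009 and 1310 at 94 dpc. The 6 signals at 1 dpn were 201, 658, 378, 146, 117 and 353. No sample at 1 dpn reached the level of any fetal sample, while replicate 2 at 1 dpn, one of those with a low GAPDH ratio, came closest.

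At 28 dpn the bright PTN probe set ranged from 36.3 to 211, with a median of 70.1. At 188 dpn it ranged from 3.46 to 46.3, with a median of 19.6. These later stages overlapped with their neighbours by few samples: 3 of 36 pairs ran the other way between 28 and 1 dpn, and 1 of 36 between 188 and 28 dpn. The overlap of 28 with 1 dpn came from replicate 1 of 28 dpn alone, as its other samples were at 36.3 to 79.5. That replicate, at 211, lay above replicates 1, 4 and 5 of 1 dpn, at 201, 146 and 117. Of these, replicates 4 and 5 had a low GAPDH ratio. The samples at 188 dpn lay below all those at 1 dpn and at 94 dpc.

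The stage means of the bright PTN probe set were 1053 ± 250 (SD, n = 5), 309 ± 202, 86.8 ± 62.6 and 21.4 ± 15.6 (n = 6 each), from 94 dpc to 188 dpn. Its median rank within the array was lower at each stage as well, at percentiles 85.1, 65.7, 36.3 and 15.0. At 1 dpn its mean was 311 ± 96.1 in the 3 samples with a normal GAPDH ratio and 307 ± 304 in the 3 with a low ratio, but the latter mean rests on replicate 2. The medians were 353 and 146, and the other low-ratio samples, at 146 and 117, were the lowest of the stage for PTN as they were among the lowest for MDK.

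The other PTN probe set, Ssc.22279.1.A1_at, was dim in every stage and did not follow the bright one. Its signals ran from 2.3 to 8.13 at 94 dpc, 3.11 to 44.3 at 1 dpn, 3.37 to 31.6 at 28 dpn and 3.56 to 18.6 at 188 dpn. Its median rank was between percentiles 4.2 and 20.0, and all stages overlapped. The course of PTN therefore rests on 1 probe set, designed from the reference transcript, while the dim one came from an expressed sequence tag.

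**Figure D1:**
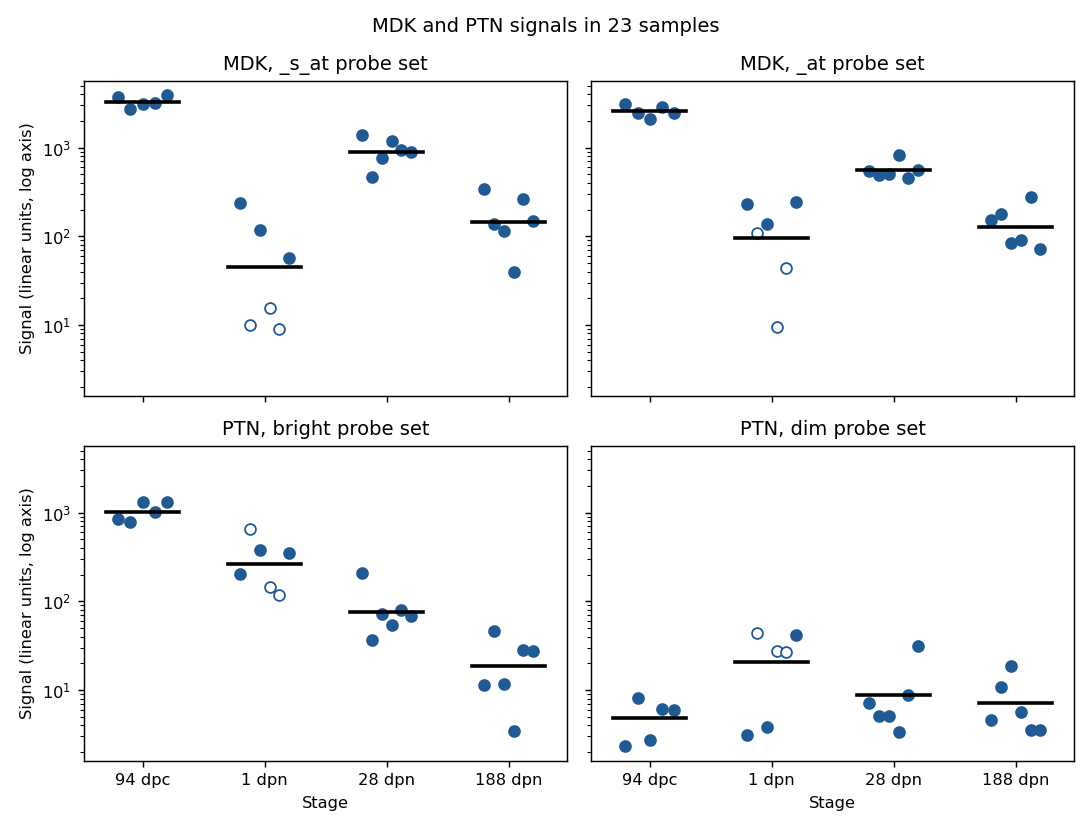
Signals of the 4 probe sets (linear units on a log axis) in each of the 23 samples, by stage. Open points are the 1 dpn samples with a low GAPDH 5' to 3' ratio, and the black line is the stage mean on the log2(signal + 16) scale turned back to signal. Both MDK probe sets are high at 94 dpc, low at 1 dpn and intermediate at 28 dpn, the bright PTN probe set steps down at each stage, and the dim PTN probe set stays under 45 throughout.

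Changes were fitted on the log2(signal + 16) scale, where the added 16 shrinks the change of dim probe sets. At 1 dpn against 94 dpc, MDK differed by -5.77 ± 0.51 (log2, SE) on the _s_at probe set, which is 54.5-fold lower, and by -4.54 ± 0.44 on the _at probe set. The _s_at fold depended on the added value, at 87.2 with 1 added and 28.3 with 64 added. Its ratio of mean signals was 44.7, and its low-ratio samples at 1 dpn lay below the added 16. PTN differed by -1.91 ± 0.39, or 3.76-fold, over the same step. No sample overlapped in these 3 cases, against a background of 9.66% of all probe sets that were lower at 1 dpn without overlap. Of the 3606 genes with a lower mean at 1 dpn, each taken by its brightest probe set, MDK ranked 2 and PTN 142. When the samples of low GAPDH ratio were left out, the MDK _s_at probe set was 24.5-fold lower and again ranked 2, now of 3591 genes, and PTN ranked 191.

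From 1 to 28 dpn the members parted. MDK was higher at 28 dpn by 3.89 ± 0.49 (14.8-fold) on the _s_at probe set and by 2.36 ± 0.42 (5.14-fold) on the _at probe set, without overlap in either. The _s_at fold was 23.4 with 1 added and 8.01 with 64 added, and the ratio of its mean signals 12.6. The background of probe sets higher at 28 dpn without overlap was 4.14%. PTN differed by -1.60 ± 0.37 (3.03-fold lower), with an overlap of samples. MDK ranked 6 among 3493 genes with a higher mean, and PTN ranked 65 among 3272 with a lower one. Those ranks became 17 of 3411 and 46 of 3354 without the low-ratio samples, and the MDK change 6.67-fold.

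From 28 to 188 dpn both genes were lower at the later stage. The difference was -2.47 ± 0.49 and -1.99 ± 0.42 for the MDK probe sets, neither with an overlap, against 6.41% of all probe sets lower without overlap. For PTN it was -1.40 ± 0.37, with an overlap.

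Over the whole span from 94 dpc to 188 dpn, MDK and PTN were both lower, by amounts that for PTN depended on the value added to the signal. The _s_at and _at probe sets of MDK differed by -4.35 ± 0.51 (20.4-fold) and -4.17 ± 0.44 (18-fold), and PTN by -4.91 ± 0.39 (30.1-fold). The ratio of mean signals was 19.1 and 18.3 for the MDK probe sets and 49.1 for PTN, whose median signal of 19.6 at 188 dpn was near the added 16. With 1 added the folds were 23, 20.3 and 59.2, and with 64 added 15.5, 13.5 and 13. None of the 3 had an overlap, against 18.5% of all probe sets lower without overlap. Among 3597 genes with a lower mean at 188 dpn, PTN ranked 8 and MDK 16. The intervals between these comparisons are not independent, since they share the samples of a stage.

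The remaining pairs of stages show how the courses differed. At 28 dpn PTN was already 11.4-fold below 94 dpc, a change of -3.51 ± 0.39, whereas MDK on the _s_at probe set was 3.68-fold below, a change of -1.88 ± 0.51. From 1 to 188 dpn PTN differed by -3.00 ± 0.37 without overlap, whereas the MDK probe sets differed by 1.42 ± 0.49 and 0.37 ± 0.42 with overlap. The share of all probe sets lower without overlap was 12.8% for 28 dpn against 94 dpc and 6.51% for 188 against 1 dpn.

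Without the 3 samples of low GAPDH ratio, the size of the MDK changes was smaller and the direction over birth and to 28 dpn was kept. The _s_at probe set then differed by -4.62 ± 0.48 at 1 dpn against 94 dpc and by 2.74 ± 0.46 at 28 against 1 dpn. The _at probe set differed by -3.59 ± 0.32 and 1.41 ± 0.31. Of 188 against 1 dpn no direction is given for MDK, since the values were 0.26 ± 0.46 and -0.58 ± 0.31. For the bright PTN probe set the same steps gave -1.73 ± 0.40 and -1.79 ± 0.39, close to the values with all samples.

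Within 1 dpn, the mean signal of MDK was 138 ± 92.2 (SD, n = 3) in samples with a normal GAPDH ratio and 11.5 ± 3.52 (n = 3) in those with a low ratio, on the _s_at probe set. On the _at probe set it was 204 ± 58.5 and 53.9 ± 50. The dim PTN probe set ran the other way, with 16 ± 21.8 and 32.8 ± 9.99. The part of RNA quality in these differences was not tested.

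**Figure D2:**
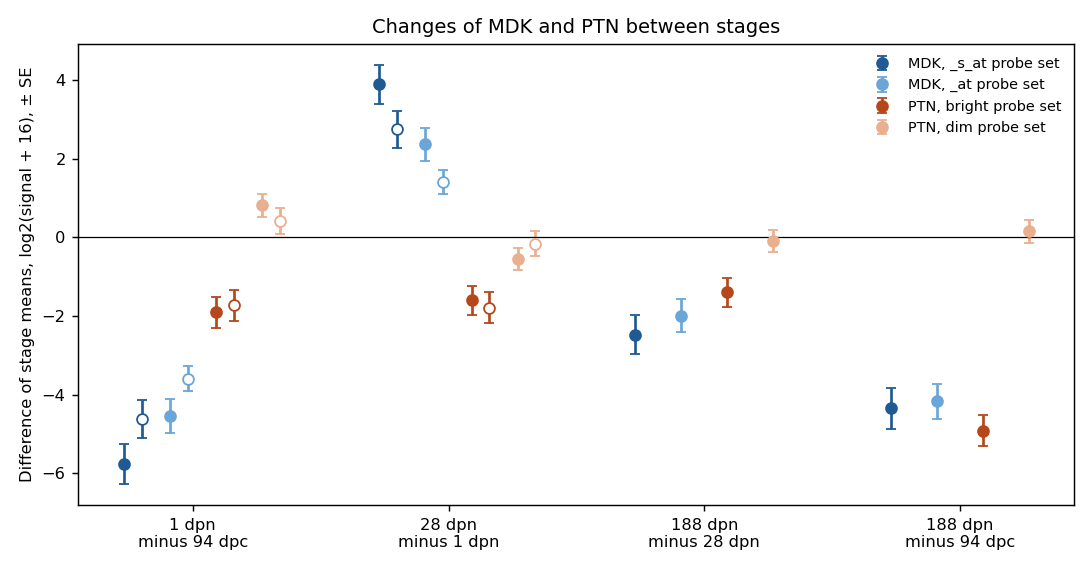
Fitted difference between stages on the log2(signal + 16) scale, with its SE, for each MDK and PTN probe set. Filled points use all samples and open points leave out the 3 samples at 1 dpn with a low GAPDH ratio. The MDK probe sets move down, up and down along the stages, for example -5.77, 3.89 and -2.47, whereas the bright PTN probe set moves down at each, by -1.91, -1.60 and -1.40.

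The number of genes sharing MDK's order of stages was counted as a description. The conditions were taken from MDK's own values, so its membership was fixed in advance, and the share depends on how many conditions are set. Of 6765 genes, 13 (0.192%) were lower at 1 dpn, higher again at 28 dpn and lower at 188 dpn, with 28 dpn below 94 dpc and no overlap at any of these steps. MDK was one of them; others were PECAM1, an adhesion molecule of endothelial cells, RAMP2, which partners the receptor of adrenomedullin, CCNB1 and CDC25B, which act at entry into mitosis, COL15A1, a basement membrane collagen, and APP. Fewer conditions, a lower 1 dpn and a higher 28 dpn without overlap, were met by 139 genes (2.05%). Without the low-ratio samples of 1 dpn, which leaves fewer samples to overlap, the counts were 27 (0.399%), which hold all 13, and 331 (4.89%).

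PTN's order was counted on stage means alone as well as without overlap. Stage means that were lower at each step occurred in 804 of 6765 genes (11.9%), and 6 genes (0.0887%), not including PTN, had this order without any overlap between neighbours. Both MDK and PTN were among the 431 genes (6.37%) whose fetal samples lay above all samples of each later stage. When the low-ratio samples were left out, means lower at each step occurred in 757 genes (11.2%), PTN among them, 20 (0.296%) had that order without overlap, again not including PTN, and 623 (9.21%), with MDK and PTN, had the fetal samples above all others.

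Across the 23 samples, the MDK probe sets had a Pearson correlation of 0.93 on the log2 scale, and 0.64 once stage means were removed. The _s_at probe set of MDK and the bright PTN probe set had 0.43, and 0.27 without stage means. The PTN probe sets had 0.05, and 0.10 without stage means. Over the 20 samples left without those of low GAPDH ratio, the MDK pair had 0.93 and 0.45, MDK with PTN 0.67 and 0.32, and the PTN pair -0.08 and 0.09. These are descriptions over arrays that share their stages.

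The 10 genes most like each member were found among 4962 genes with a bright enough probe set, by Pearson correlation over the same 23 samples. For MDK these were CKS2, RAMP2, IFNGR1, CKS1B, CTSH, SLK, PTTG1, SERTAD2, SEMA4D and PDIA3, with correlations of 0.94 down to 0.89. CKS2, a small subunit that binds cyclin-dependent kinases, had mean signals of 1551 ± 187, 258 ± 175, 641 ± 90.3 and 407 ± 69.4 from 94 dpc to 188 dpn (SD, n = 5, 6, 6 and 6). RAMP2 had 3642 ± 497, 987 ± 461, 2204 ± 210 and 1207 ± 176. PTTG1, the securin that keeps separase inactive, had 538 ± 66.2, 97.9 ± 65, 221 ± 99 and 141 ± 50.4. With all samples, each of these 3 had its lowest mean at 1 dpn and its second highest at 28 dpn, as the _s_at probe set of MDK did. Without stage means the correlations of the 10 genes with MDK were 0.28 for SLK to 0.78 for PTTG1. The choice of these genes rested on the low-ratio samples: over the other 20 samples none of the 10 was among the 10 most like MDK, a set led by APP, although their correlations were still 0.86 for PTTG1 to 0.91 for CKS2 and SERTAD2.

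For PTN the 10 genes were LOC396711, SH3GL1, ASAP3, SH3PXD2A, PEG10, FGFR1, MMP2, APOA1, SPATS2L and GLIPR2, with correlations of 0.96 down to 0.92. PEG10, an imprinted gene derived from a retrotransposon, had mean signals of 19011 ± 3246, 4231 ± 2063, 445 ± 182 and 126 ± 41.2 along the stages. FGFR1, a receptor of fibroblast growth factors, had 1985 ± 112, 978 ± 175, 645 ± 133 and 329 ± 60. MMP2, a protease that degrades matrix proteins, had 3474 ± 464, 2328 ± 598, 1193 ± 226 and 697 ± 176. All 3 stepped down at each stage in their means, like PTN. APOA1, an apolipoprotein, is also on the hepatocyte list. Without stage means the correlations with PTN were 0.18 for FGFR1 to 0.80 for SH3PXD2A. Over the 20 samples, 3 of the 10 (LOC396711, SH3GL1 and MMP2) were still among those most like PTN, and all 10 had correlations of 0.93 to 0.96.

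**Figure D3:**
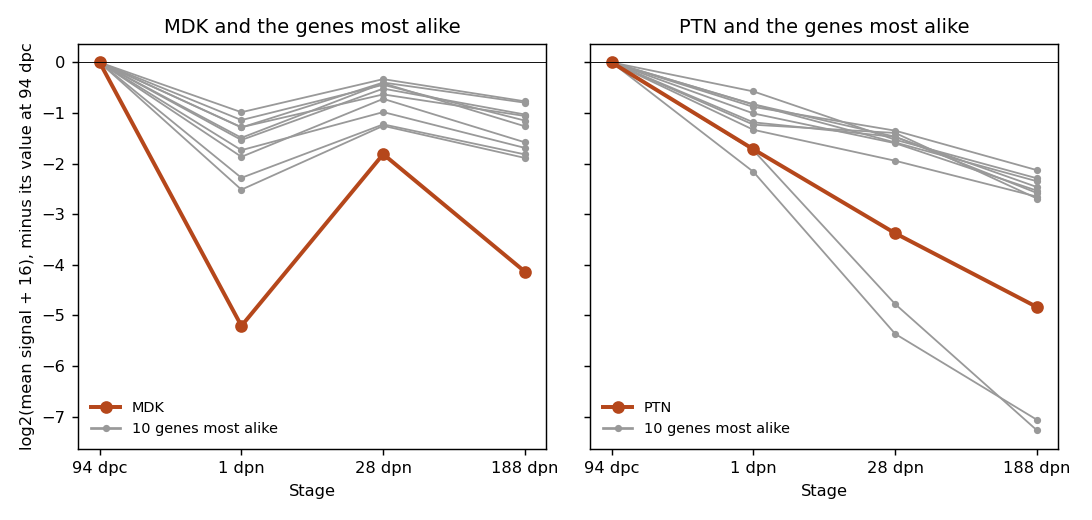
Value by stage, as log2(mean signal + 16) minus the same at 94 dpc, of MDK and PTN (thick lines) and of the 10 genes whose values over the 23 samples were most like each (grey). The genes were chosen for this likeness, so the matching shapes are a description: all lines of the MDK panel go down, up and down, with MDK the lowest at each later stage, and all lines of the PTN panel go down, with LOC396711 and PEG10 below PTN at 28 and 188 dpn.

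The receptors and binding partners were read from a list of 29 genes, of which 11 had a probe set of their own; PTPRZ1, ALK, LRP1, NCL and SDC3 are not analysed here. A gene was called when its brightest probe set had an adjusted p under 0.05 in limma, with Benjamini-Hochberg adjustment over 23999 probe sets. From 94 dpc to 1 dpn 7 of the 11 fell, none rose and 4 did not pass, against a background of 19.4% of genes called lower and 13.7% called higher. Their median change was -0.80 (log2), and that of all genes -0.06.

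The largest fall was that of VCAN (versican), a matrix proteoglycan with chondroitin sulphate chains that bind midkine. Its signal went from 1602 ± 442 (SD, n = 5) at 94 dpc to 114 ± 57.3 (n = 6) at 1 dpn, a change of -3.73 ± 0.32 with an adjusted p of 2.3e-08 in limma. Of its 4 other probe sets, 2 also fell, at -2.33 each, and 2 did not pass, at 0.40 and 0.05. LRP6, a co-receptor of Wnt ligands, fell from 445 ± 59.6 to 108 ± 69.2, by 2.05 ± 0.30 (adjusted p = 1.9e-05).

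Syndecans are transmembrane proteoglycans that carry heparan sulphate. SDC1 fell from 582 ± 193 to 191 ± 81.7 (log2 change -1.57 ± 0.31, adjusted p = 6.0e-04 in limma), and SDC2 from 1433 ± 161 to 670 ± 269 (-1.20 ± 0.27, adjusted p = 0.0021). SDC4 did not pass, with 334 ± 100 at 94 dpc and 552 ± 414 at 1 dpn. Without the 3 samples of low GAPDH ratio SDC4 was called higher, with a change of 1.04 and an adjusted p of 0.011, 6 others were called lower, and 5 of these 7 calls were also made with all samples. Among the 5, the change was then -3.58 for VCAN, -1.70 for LRP6, -1.73 for SDC1 and -1.09 for SDC2 (adjusted p = 9.9e-07, 9.1e-04, 0.0013 and 0.0015 in limma). In that fit 14.3% of all genes were called higher over birth and 18.7% lower. Over birth 1 of the 3 other probe sets of SDC1 also fell, and 2 did not pass, at 0.61 and -1.09.

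Between 1 and 28 dpn, when MDK returned, 1 of the 11 receptor genes rose and none fell, against 13.5% of genes called higher and 10.6% called lower. It was LRP6, at 216 ± 46.3 at 28 dpn, with a change of 1.05 ± 0.28 and an adjusted p of 0.012 in limma, while its other probe set did not pass, at 0.67. Without the samples of low GAPDH ratio LRP6 no longer passed (adjusted p = 0.18), and SDC4 was called lower, by 1.64 with an adjusted p of 5.9e-04. In that fit 10.4% of all genes were called higher and 9.08% lower. The median change of the list was 0.23, and that of all genes 0.03.

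From 28 to 188 dpn 2 of the 11 fell and none rose, against 12.5% of genes called lower and 5.78% called higher, with a median of -0.15 beside -0.06 for all genes. ITGB3, an integrin subunit that pairs with the αv chain, fell from 324 ± 80.6 to 92 ± 51.9, by 1.80 ± 0.37 (adjusted p = 0.0016 in limma). ITGB1, the integrin β1 chain, fell by 0.54 ± 0.17 (adjusted p = 0.036). The ITGB1 call was lost when any of 8 of the 12 samples was left out, namely replicates 3, 4, 5 and 6 of 28 dpn and replicates 2, 3, 5 and 6 of 188 dpn, with an adjusted p of 0.055 to 0.081.

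Over the whole span 7 of the 11 receptor genes fell and none rose, against 27.4% of genes called lower and 19.5% called higher. The median was -1.02, beside -0.08 for all genes. VCAN ended at 103 ± 33 (-3.76 ± 0.32, adjusted p = 2.3e-09 in limma), ITGB3 changed by -2.52 ± 0.38 (adjusted p = 1.2e-05) and SDC1 by -1.98 ± 0.31 (adjusted p = 2.0e-05). SDC2 fell by 1.54 ± 0.27, with an adjusted p of 8.6e-05. For SDC1 the probe sets disagreed: one more fell, another did not pass, and Ssc.11655.1.A1_at rose by 1.11 (adjusted p = 0.02). SDC4 was at 305 ± 79.7 at 188 dpn and did not pass.

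The enzymes that build and modify glycosaminoglycan chains, to which both growth factors bind, were read from 38 genes, of which 11 were measured. From 94 dpc to 1 dpn 5 of the 11 fell and none rose, beside 19.4% of genes called lower and 13.7% called higher, with a median of -0.72. That count uses the brightest probe sets, which for CHST14 and SULF2 did not pass, at -0.41 and -0.27. The other probe set of each fell, at -1.05 and -2.04 (adjusted p = 3.8e-04 and 0.002 in limma). UST, which adds sulphate to the uronic acid of chondroitin and dermatan chains, fell from 277 ± 37 to 94.2 ± 57.5, by 1.65 ± 0.35 (adjusted p = 0.0011 in limma). EXT1, a polymerase of heparan sulphate, fell from 1614 ± 166 to 667 ± 142, by 1.28 ± 0.19 (adjusted p = 2.6e-05). CHSY1, which elongates chondroitin chains, fell from 2372 ± 474 to 1146 ± 398, by 1.09 ± 0.27 (adjusted p = 0.0039). When the samples of low GAPDH ratio were left out 7 fell, among them all 5, beside 18.7% of all genes called lower in that fit.

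After birth, from 1 to 28 dpn, 1 of the 11 enzymes rose and 1 fell, against 13.5% and 10.6% of genes. SULF2 did not pass on its brightest probe set, at -0.06, while its other probe set rose by 1.28 (adjusted p = 0.049 in limma). UST rose by 1.24 ± 0.34 to 209 ± 58.2 (adjusted p = 0.012 in limma), and B4GALT7, which adds a galactose of the linkage region, fell by 0.62 ± 0.21 (adjusted p = 0.046). Neither passed without the samples of low GAPDH ratio, with an adjusted p of 0.11 and 0.32. B4GALT7 also lost its call when any of 8 of 12 samples was left out, namely replicates 2, 4 and 5 of 1 dpn and replicates 1, 2, 3, 5 and 6 of 28 dpn.

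At the last step, 6 of the 11 enzymes fell and none rose, against 12.5% of genes called lower. CHSY1 fell from 1235 ± 162 to 374 ± 145, by 1.77 ± 0.26 (adjusted p = 5.3e-05 in limma). DSE, the epimerase that turns chondroitin into dermatan sulphate, fell from 244 ± 52.5 to 76.7 ± 38.8, by 1.60 ± 0.31 (adjusted p = 8.8e-04), whereas its other probe set did not pass, at -0.10. CHST14, which sulphates dermatan, fell by 1.11 ± 0.19 (adjusted p = 2.6e-04), and its other probe set did not pass, at -0.54 (adjusted p = 0.064). The median of the list was -0.72.

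Over the whole span 7 of the 11 enzymes fell and 1 rose, beside 27.4% and 19.5% of all genes, with a median of -1.73, the lowest of the 4 lists in this comparison. DSE fell by 2.96 ± 0.32 (7.78-fold, adjusted p = 1.0e-07 in limma) and its other probe set by 0.92. CHSY1 fell by 2.69 ± 0.27 (6.47-fold, adjusted p = 3.0e-08). HS2ST1, which sulphates heparan chains, fell by 1.83 ± 0.24 (adjusted p = 1.5e-06), while 2 of its 3 other probe sets did not pass. B3GAT3, which completes the linkage region, rose by 0.81 ± 0.18 (adjusted p = 8.6e-04).

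Since midkine was found through retinoic acid, 27 genes of retinoid transport, synthesis and response were read, of which 15 were measured. From 94 dpc to 1 dpn 3 fell, none rose and 12 did not pass, a share of 20% beside the background of 19.4%. That count uses the brightest probe sets, and for RARRES1 the probe sets disagreed. Its brightest did not pass, at -0.21, while its others fell, at -2.44 and -1.42 (adjusted p = 4.1e-04 and 0.0098 in limma). CRABP2, which carries retinoic acid in the cell, fell from 625 ± 198 to 179 ± 116, by 1.92 ± 0.50 (adjusted p = 0.0059 in limma). RARRES2, which encodes the secreted protein chemerin, fell by 1.71 ± 0.42 (adjusted p = 0.004), a call lost at 0.077 without the samples of low GAPDH ratio. RDH11, a retinol dehydrogenase, fell by 1.08 ± 0.27 (adjusted p = 0.0041). With the low-ratio samples left out 3 fell again, of which 2 (CRABP2 and RDH11) were the same and the other was ALDH1A1, at -1.75 (adjusted p = 0.0017). In that fit 18.7% of all genes were called lower.

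Of the 15, 3 (20%) rose from 1 to 28 dpn and none fell, near the shares of all genes, 13.5% and 10.6%. RXRG, a nuclear receptor that partners the retinoic acid receptors, rose from 65.8 ± 35.6 to 283 ± 76.8, by 1.96 ± 0.29 (adjusted p = 4.9e-05 in limma). ALDH1A1, which makes retinoic acid from retinal, rose from 268 ± 166 to 685 ± 254, by 1.50 ± 0.38 (adjusted p = 0.0073), and its other probe set did not pass, at 0.28. RARRES2 rose by 1.35 ± 0.40 (adjusted p = 0.022), which was lost without replicate 2 or replicate 4 of 1 dpn, at an adjusted p of 0.052 to 0.06, and at 0.38 without all 3 samples of low GAPDH ratio. RXRG and ALDH1A1 were called higher in that case too, beside 10.4% of all genes.

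In the last step RBP7, a retinol-binding protein, fell by 2.94 ± 0.59 (adjusted p = 0.0013 in limma), from 370 ± 180 to 36.4 ± 31.5, and the other 14 did not pass, beside 12.5% of all genes called lower. The count was 3 without replicate 1 of 188 dpn and 2 without replicate 1 of 28 dpn. RXRA did not pass on its brightest probe set, at -0.54, while its other probe set rose by 0.69 (adjusted p = 0.0021 in limma).

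Over the whole span 4 of the 15 (26.7%) fell and 2 (13.3%) rose, not above the 27.4% and 19.5% of all genes. CRABP2 fell by 2.81 ± 0.50 (adjusted p = 8.2e-05 in limma), RBP7 by 2.76 ± 0.61 (adjusted p = 8.9e-04) and RARRES2 by 1.26 ± 0.42 (adjusted p = 0.021, or 0.052 without replicate 2 of 94 dpc). RXRG rose by 2.27 ± 0.30 (adjusted p = 1.9e-06) and ALDH1A1 by 1.13 ± 0.39 (adjusted p = 0.027). The ALDH1A1 call was lost without replicate 1, 2 or 5 of 94 dpc or replicate 1 of 188 dpn, at an adjusted p of 0.05 to 0.077, and its other probe set did not pass, at 0.83. The list's median was -0.43. RARRES1 did not pass on its brightest probe set, at -0.13, while its others fell, at -2.13 and -2.11 (adjusted p = 7.9e-04 and 1.6e-04 in limma). RXRA did not pass on its brightest, at -0.44, while its other probe set rose by 0.95 (adjusted p = 2.4e-05).

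Other secreted factors that bind heparin were read for comparison, 16 of 34 listed. From 94 dpc to 1 dpn 5 (31.2%) fell and none rose, beside 19.4% and 13.7% of all genes, and the median of -0.04 was near that of all genes. TGFB2 did not pass on its brightest probe set, at 0.01. Another of its probe sets fell, at -1.45 (adjusted p = 0.0017 in limma), and the rest did not pass. FGF18, a fibroblast growth factor, fell from 314 ± 28.7 to 103 ± 68.7, by 1.63 ± 0.32 (adjusted p = 5.2e-04 in limma). TGFB3, a transforming growth factor β, fell from 653 ± 95.3 to 222 ± 51, by 1.50 ± 0.28 (adjusted p = 3.4e-04), while its other probe set did not pass. CXCL12, a chemokine, fell from 2756 ± 344 to 1146 ± 753, by 1.50 ± 0.32 (adjusted p = 0.0011). The same 5 genes fell when the low-ratio samples were left out, with an adjusted p of 0.011 for FGF18, 0.0055 for TGFB3 and 2.8e-05 for CXCL12 in limma. In that fit 18.7% of all genes were called lower.

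Of the 16, 3 (18.8%) rose from 1 to 28 dpn and 2 (12.5%) fell, near the 13.5% and 10.6% of all genes. VEGFA, the endothelial growth factor, rose from 2757 ± 804 to 6353 ± 740, by 1.24 ± 0.18 (adjusted p = 3.8e-05 in limma); the mean over its probe sets did not pass, at 0.21 (adjusted p = 0.49). CXCL12 rose by 0.97 ± 0.30 (adjusted p = 0.03) and BMP4, a bone morphogenetic protein, by 0.85 ± 0.21 (adjusted p = 0.0061). The CXCL12 call was lost without replicate 2, 3 or 6 of 1 dpn or replicate 3 or 6 of 28 dpn, at 0.054 to 0.077, whereas its other probe set rose by 1.65 (adjusted p = 0.0012). FGF9 fell from 57.3 ± 26.7 to 13.2 ± 7.65, a mean below the added 16, by 1.28 ± 0.33 (adjusted p = 0.0081 in limma). CYR61, a matricellular protein, fell by 1.30 ± 0.44 (adjusted p = 0.045), a call that was lost at 0.69 once the samples of low GAPDH ratio were left out. CYR61 also lost its call without replicate 2, 4 or 5 of 1 dpn or replicate 1, 2, 5 or 6 of 28 dpn. With all 3 low-ratio samples left out 4 rose, which were VEGFA, CXCL12, BMP4 and HDGF, and FGF9 fell. In that fit 10.4% of all genes were called higher and 9.08% lower.

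Of the 16, 3 (18.8%) fell from 28 to 188 dpn and none rose, beside 12.5% and 5.78% of all genes. VEGFA did not pass on its brightest probe set, at 0.49. Another of its probe sets fell, at -1.50 (adjusted p = 2.2e-04 in limma), and the rest did not pass. FGF18 fell from 109 ± 29.2 to 22.9 ± 18.1, by 1.78 ± 0.31 (adjusted p = 3.2e-04 in limma). TGFB3 fell by 0.81 ± 0.27 (adjusted p = 0.047) and TGFB1 by 0.76 ± 0.20 (adjusted p = 0.012), while the other probe set of each did not pass, at -0.09 and -0.03. The TGFB3 call was lost without replicate 1, 2, 5 or 6 of 28 dpn or replicate 4, 5 or 6 of 188 dpn, at an adjusted p of 0.06 to 0.12.

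Over the whole span 5 of the 16 (31.2%) fell and 3 (18.8%) rose, near the 27.4% and 19.5% of all genes, with a median of -0.40. TGFB2 and CXCL12 did not pass on their brightest probe sets, at -0.76 and -0.74. Another probe set fell for TGFB2, at -1.16, and rose for CXCL12, at 0.95 (adjusted p = 0.0061 and 0.034 in limma). FGF18 fell by 3.21 ± 0.32 (9.24-fold, adjusted p = 3.2e-08 in limma), TGFB3 by 2.55 ± 0.28 (adjusted p = 1.4e-07; its other probe set did not pass, at -0.69) and FGF9 by 1.46 ± 0.34 (adjusted p = 0.0015). At 188 dpn FGF9 was dim, as its signals outside replicate 6 were 9.15 to 20.5, near the added 16. HBEGF, a ligand of the epidermal growth factor receptor, rose by 1.44 ± 0.31 (adjusted p = 7.3e-04 in limma), and HDGF rose by 0.95 ± 0.18 (adjusted p = 1.7e-04). VEGFA rose to 8877 ± 241, by 1.92 ± 0.19 (adjusted p = 2.0e-08), on its brightest probe set, though the mean over its probe sets changed by 0.01 (adjusted p = 0.97) and Ssc.15740.1.S2_at fell by 1.40 (adjusted p = 1.4e-04) and 2 more did not pass.

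**Figure D4:**
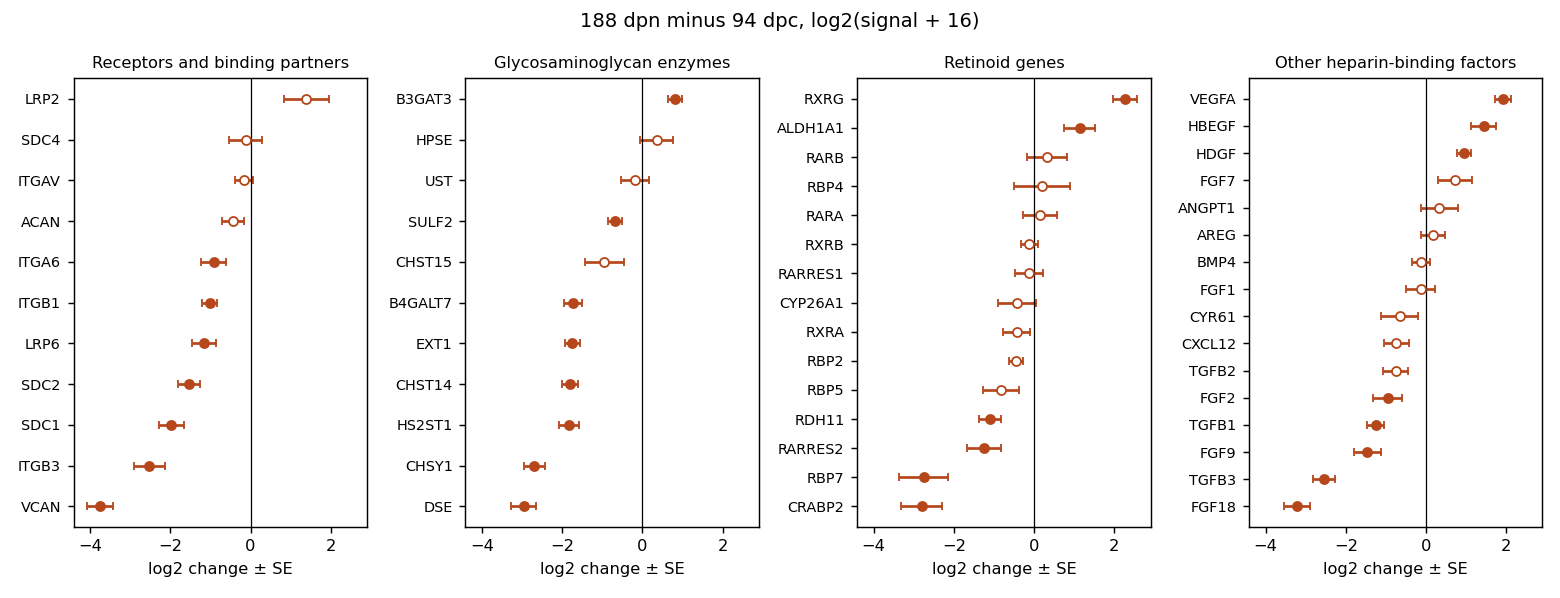
Difference of 188 dpn minus 94 dpc on the log2(signal + 16) scale, with its SE, for every measured gene of the 4 lists by its brightest probe set. Filled points were called at an adjusted p under 0.05 in limma. Of the receptors 7 of 11 fell and none rose, and of the glycosaminoglycan enzymes 7 of 11 fell and 1 (B3GAT3) rose. The lists of retinoid genes and other heparin-binding factors also hold filled points on both sides of 0, from -3.21 for FGF18 to 2.27 for RXRG.

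Markers of other cell types moved along the stages beside MDK and PTN. The summed signal of 8 endothelial markers was 9288 to 15297 at 94 dpc, 3830 to 5809 at 1 dpn, 6588 to 9292 at 28 dpn and 2854 to 4327 at 188 dpn. These totals went down, up and down over the successive steps, as MDK did. The brightest members at 94 dpc were PECAM1, CDH5 and CLDN5, with mean signals of 4435, 3882 and 2000. Of the 8, 5 fell over birth, beside 19.4% of all genes. From 1 to 28 dpn 5 rose and 1 (ENG) fell, beside 13.5% and 10.6%, and from 28 to 188 dpn 4 fell, beside 12.5%. PECAM1 changed by -1.25 ± 0.16, 0.63 ± 0.16 and -1.31 ± 0.16 over these steps (adjusted p = 6.0e-06, 0.007 and 6.1e-06 in limma). It was already named above for sharing MDK's order. Not every member did so: VWF changed by 0.15, 0.42 and 0.03, and ENG by 0.51, -0.97 and 0.14. KDR and VWF did not pass at any of these steps. With the low-ratio samples left out 5 again fell over birth, 3 (PECAM1, TEK and TIE1) rose to 28 dpn and none fell. In that fit 18.7% of all genes were called lower over birth. From 1 to 28 dpn 10.4% were called higher and 9.08% lower.

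The summed signal of 9 markers of matrix-forming cells was 47799 to 66206 at 94 dpc and 16446 to 36308, 17783 to 37875 and 12597 to 18954 afterwards. Of these 9, 6 fell over birth and 8 over the whole span, beside 19.4% and 27.4% of all genes. Without the low-ratio samples 5 fell over birth, beside 18.7% of all genes in that fit. The 4 measured of 10 markers of myoblasts and embryonic muscle summed to 7025 to 10643 before birth and to 635 to 1111 at 188 dpn. All 4 fell over that span, beside 27.4% of all genes. Skeletal muscle markers moved the other way, from 259791 to 307508 at 94 dpc up to 560365 to 740397 at 188 dpn, and all 8 rose, beside 19.5% of all genes. The part of these cell types in the course of MDK and PTN was not tested.

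Of the other lists, 3 Schwann cell markers of 9 summed to 1824 to 2781 at 94 dpc and 777 to 977 at 188 dpn. Over that span 2 of the 3 (MBP and S100B) fell, beside 27.4% of all genes, and SOX10 did not pass, at -0.24. Cartilage and bone markers were dim, with 5 to 7 of the 7 measured below the array median in each stage. Leukocyte markers summed to 464 to 722 at 94 dpc and 426 to 905 at 188 dpn. Adipocyte markers summed to 7040 to 10019 and 7925 to 14740. Hepatocyte markers summed to 11791 to 37641, 4782 to 18422, 2064 to 24402 and 2656 to 19991 along the stages. At 28 dpn the sum was 24402 in replicate 1 and 2064 to 3550 in the other samples. The same replicate had the highest sum of matrix-forming cell markers of its stage, 37875. It also had the highest signals of the MDK _s_at and bright PTN probe sets at 28 dpn, 1376 and 211. On the MDK _at probe set it did not, at 546 beside 564 in replicate 6 and 823 in replicate 4. No marker list had all of its measured members below the array median in every stage.

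**Figure D5:**
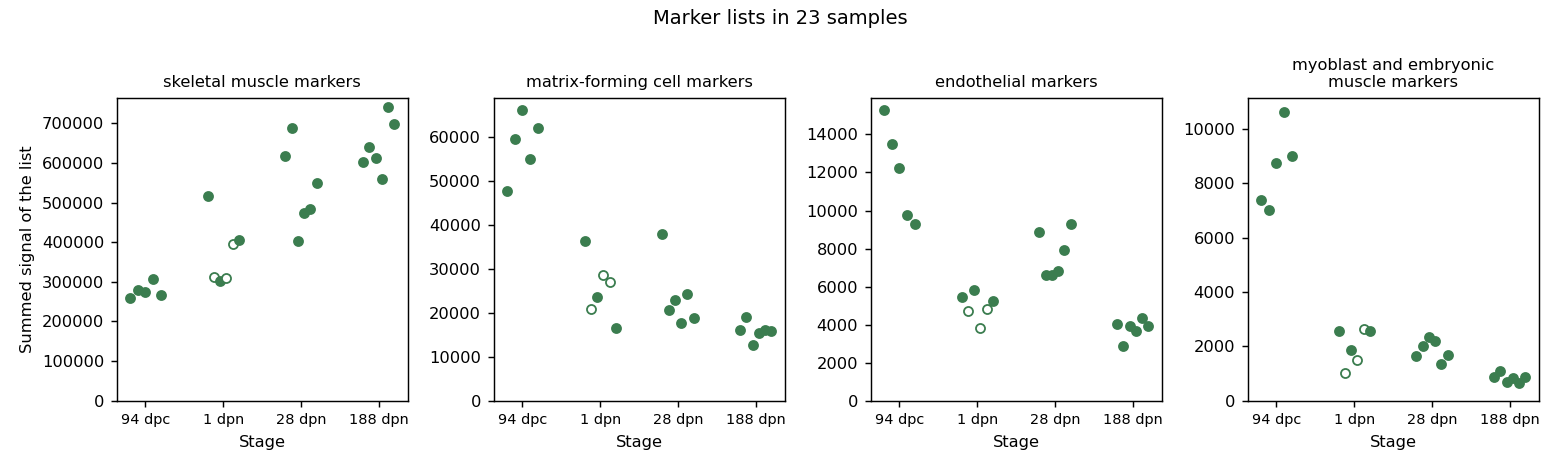
Summed signal (linear units) of 4 marker lists in each of the 23 samples by stage, with axes from 0. Open points are the 1 dpn samples with a low GAPDH ratio. Skeletal muscle markers rise along the stages, matrix-forming and myoblast markers are highest at 94 dpc, and endothelial markers fall to 1 dpn, are higher at 28 dpn and low at 188 dpn, between 2854 and 4327.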

How the data were processed

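The authors deposited 1 table of linear signal intensities per probe set for 23 arrays. Per the submitters' processing notes GCOS 1.1.1 was used; summarisation and background correction are not stated in the labels or headers. Per the labels' protocols, biotinylated cRNA was made from 0.5 ug of total RNA. Scaling to one trimmed mean, seen in the values, makes every signal relative to its array.

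Values were taken as log2(signal + 16) with no further normalization. After 124 control probe sets were left out, 23999 probe sets were fitted with a mean for each stage in limma 3.58.1 (R 4.3.3), two-sided, with Benjamini-Hochberg adjustment per comparison and a threshold of 0.05. It was tested on simulated data. Genes were named from probe sets with 1 symbol, and each of 6765 genes was taken by its brightest probe set. No deposited detection call was used, so no probe set is called absent. The number of arrays limits the precision.

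The members and lists were chosen with earlier results of these data known. Per list and comparison, up to 3 called genes with the largest rise and 3 with the largest fall were named, plus the syndecans, and for each member the 10 genes of highest correlation whose mean log2 lay above 7.15. Probe sets that disagree, and genes sharing MDK's order, were named after their values were seen. Replicate numbers follow accession order.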

Additional observations from a re-analysis of the deposited data

Results flagged for a closer look

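In 10 of 140 groups of samples examined, 1 sample stood apart from its group by Dixon's criterion; chance flags about 1 in 20 groups. For the members, the MDK _at probe set was at 823 in replicate 4 of 28 dpn, above 461 to 564 in the others, and the dim PTN probe set was at 31.6 in replicate 6 of 28 dpn, above 3.37 to 8.85.

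Among the pathway genes at 188 dpn, ALDH1A1 was at 2323 in replicate 1 (others 653 to 939), HBEGF at 1334 in replicate 4 (others 382 to 575) and FGF9 at 101 in replicate 6 (others 9.15 to 20.5). SDC1 was at 83.3 in that same replicate 6, below 122 to 149. At 28 dpn, SDC2 was at 1162 in replicate 1 (others 544 to 710). At 94 dpc, CXCL12 was at 3359 in replicate 1 (others 2512 to 2681), TGFB3 at 489 in replicate 1 (others 668 to 737) and HDGF at 1522 in replicate 3 (others 1877 to 2017).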

How the results depend on the processing

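No paired analysis was possible because the numbers in the labels run on across the stages and pair no samples. The differences of the members kept their direction under the alternatives run wherever stages did not overlap, and 468 of their 486 alternative values moved by less than the spread. The cause of each move was not tested. Without the samples of low GAPDH ratio the MDK _at probe set gave -3.59, 1.41 and, for 188 against 1 dpn, -0.58, and the _s_at probe set -4.62, 2.74 and 0.26. With 64 added in place of 16, the _s_at probe set gave -4.82 over birth, and the bright PTN probe set -3.70 (188 dpn against 94 dpc) and -1.98 (188 against 1 dpn). With 1 added, the bright PTN probe set gave -5.89, -3.90 and, for 188 against 28 dpn, -2.11, and the dim one 1.66 (1 dpn against 94 dpc) and -1.23 (188 against 1 dpn). The mean of both PTN probe sets gave -0.55 (1 dpn against 94 dpc), -1.63 (28 dpn against 94 dpc), -2.38 (188 dpn against 94 dpc) and -1.83 (188 against 1 dpn).

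Of the counts of called genes, the receptors gave 4 in place of 7 over birth and 1 in place of 2 from 28 to 188 dpn after centring, and 2 in place of 1 from 1 to 28 dpn among brighter probe sets. The glycosaminoglycan enzymes gave 3 in place of 5 over birth with only the stages compared. From 1 to 28 dpn they gave 0 in place of 2 in that fit and without the samples of low GAPDH ratio, and 1 with array weights or 1 added. The other heparin-binding factors gave 3 in place of 5 over birth after quantile normalization and, with only the stages compared, 3 in place of 5 from 1 to 28 dpn. From 28 to 188 dpn they gave 5 in place of 3 with trend and robust options or 64 added, and 1 with the mean of probe sets. The retinoid genes gave, in place of 1 from 28 to 188 dpn, 2 after centring, quantile normalization or the mean of probe sets, 3 among brighter probe sets, with trend and robust options, with only the stages compared or with 64 added, and 4 with array weights. From 1 to 28 dpn they gave 5 in place of 3 among brighter probe sets. Leaving out 1 sample gave, over birth, 3 to 5 enzymes. From 1 to 28 dpn it gave 1 to 2 enzymes, 3 to 5 other heparin-binding factors and 1 to 2 receptors, and from 28 to 188 dpn 1 to 2 receptors and 1 to 3 retinoid genes.

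The share of higher among all called probe sets depended on scaling: over birth it was 31.2% with the deposited scaling, 47.3% with quantiles matched and 59.4% with medians centred, and over the whole span 36.3%, 48.8% and 56.9%. The median change of all probe sets moved over birth from -0.108 to 0.038 and 0.165, and over the whole span from -0.077 to 0.077 and 0.217. From 28 to 188 dpn the share was 33.7%, 42.5% and 46.6%. No named call turned its sign. Of those named, centring ended ITGB1 (adjusted p = 0.11) and TGFB3 (0.086) from 28 to 188 dpn and RARRES2 over the whole span (0.067), and quantile normalization ended TGFB3 from 28 to 188 dpn (0.084). With only the stages compared, UST (0.078), CXCL12 (0.11), RARRES2 (0.084), B4GALT7 (0.07) and CYR61 (0.093) from 1 to 28 dpn and TGFB3 (0.11) from 28 to 188 dpn did not pass. These last 3 calls also ended with array weights (0.092, 0.069 and 0.051) or 1 added (0.057, 0.055 and 0.057), and CYR61 with trend and robust options (0.051). The mean of probe sets ended ALDH1A1 from 1 to 28 dpn (0.062) and TGFB1 (0.3) and TGFB3 (0.33) from 28 to 188 dpn.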
